A study of Mus musculus with 72 samples.

Results

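A set of 9 genes, 8 of them for proteins of the receiving side of excitatory synapses and 1 for Synpo2, a muscle relative of synaptopodin, was followed through the brain and heart of mice without Gnb5, the beta-5 subunit of G proteins. They were taken by name as the count rows of Synpo, Synpo2, Dlg4, Shank1, Shank2, Shank3, Homer1, Dlgap1 and Camk2a, 9 of the 53715 gene identifiers in the files, and every one was found.

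The 72 RNA sequencing libraries came from 18 male mice aged 18 weeks, 6 of each of the genotypes Gnb5+/+ (wild type), Gnb5+/- (heterozygous) and Gnb5-/- (knockout). The heart gave atrial and ventricular libraries of each genotype, and the brain gave libraries of cerebellum, hippocampi and cerebral cortex from Gnb5-/- and Gnb5+/+ mice, 12 groups of 6 in all. The knockout allele lacks exon 3 of Gnb5, was made in the germline on a C57BL/6J background and is therefore carried by every cell of the animal. The labels name no treatment beyond genotype. Each library is total RNA of a whole dissected tissue, with right and left chambers of the heart joined, so fewer cells of a type and less RNA per cell cannot be told apart.

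A dendritic spine holds beneath its membrane a dense plate of proteins, the postsynaptic density, that keeps glutamate receptors opposite the site of transmitter release. PSD-95, encoded by Dlg4, binds receptors at the membrane. SAPAP1, encoded by Dlgap1, links PSD-95 to the Shank proteins, and Homer1 ties the Shanks to metabotropic receptors and to calcium stores. CaMKII alpha, encoded by Camk2a, is the kinase through which calcium entry strengthens a synapse. Synaptopodin, encoded by Synpo, binds actin and alpha-actinin and is needed for the spine apparatus, a stack of endoplasmic reticulum in forebrain spines, while its relative synaptopodin 2, encoded by Synpo2 and also called myopodin, is known from the Z-discs of muscle.

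Values are CPM, the reads of a gene per 1e6 reads counted, scaled between libraries by TMM, separately in brain and heart. Reads counted on genes numbered 29204390 to 48807435 per library. Gnb5 itself was 143.8 CPM in Gnb5+/+ and 20.1 CPM in Gnb5-/- cerebellum on average, 102.3 and 13.2 in hippocampus. In cortex the means were 135.3 and 15.9 CPM. In the heart it was 24.6, 12.8 and 1.52 CPM in Gnb5+/+, Gnb5+/- and Gnb5-/- atria, and 22.2, 11.5 and 1.13 in ventricles, and no 2 genotypes overlapped in any tissue. Within the brain, cerebellum and hippocampus carried their own markers. The summed level of 6 granule cell genes was 4256 to 4996 CPM in Gnb5+/+ cerebellum and 9.9 to 13.8 in cortex. A list of 6 hippocampal genes summed to 552 to 743 CPM in hippocampus and 187 to 268 in cortex. That list was higher in the heart, at 880 to 1144 CPM in Gnb5+/+ atria and 1871 to 2243 in ventricles, so it serves within the brain only.

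A group of 3 Gnb5-/- libraries stood apart from the rest: cerebellum replicate 2, cortex replicate 3 and cortex replicate 5. Between 6.86% and 8.32% of their reads lay outside genes, against 11.7% to 16.97% in the other 33 brain libraries. Their median correlation with the libraries of their own group was 0.912 to 0.972, against 0.986 to 0.991. They came from 3 different mice, whose other brain libraries did not stand apart. Where these 3 libraries enter a fold change between genotypes or a permutation test in brain, the value without them is given as well. Counts of calls are given without them only in part. Counts for genes outside the set, and counts of overlap or of unadjusted p between genotypes within a region, include these libraries.

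Among the Gnb5+/+ brain libraries the forebrain held much more Synpo and Camk2a than the cerebellum, and the other scaffolds differed less. Synpo was 14.7 ± 3.18 CPM (mean ± SD, n = 6) in cerebellum, with a lowest, median and highest value of 10.5, 16.1 and 17.8. In hippocampus the same 3 values were 190, 206 and 218 CPM, and in cortex 227, 256 and 273. The cerebellar libraries thus lay below every forebrain library, with a log2 difference from cortex of -4.10 ± 0.17 (SE; edgeR quasi-likelihood test, adjusted p = 4.15e-16). Against hippocampus it was -3.82 ± 0.17 (adjusted p = 1.25e-15).

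Camk2a showed the widest range of the 9 genes between brain regions. It was 107, 110 and 117 CPM at its lowest, median and highest in Gnb5+/+ cerebellum, 4252, 4641 and 4909 in hippocampus, while cortex held 3643, 4082 and 4270. The cerebellum was lower than cortex by a log2 difference of -5.18 ± 0.30 (edgeR, adjusted p = 1.69e-13) and lower than hippocampus by -5.37 ± 0.30 (adjusted p = 9.51e-14). Camk2b, the beta subunit of the same kinase, was 788 CPM in cerebellum, 1417 in hippocampus and 872 in cortex. The count ratio of Camk2a to Camk2b, which does not depend on scaling between libraries, averaged 0.141 in cerebellum, 3.25 in hippocampus and 4.63 in cortex.

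Homer1 was called between every pair of regions, as was Dlgap1, and hippocampus and cortex met at 168 CPM. Its lowest, median and highest values were 31.5, 51.2 and 61 CPM in Gnb5+/+ cerebellum, 114, 153 and 168 in hippocampus, while cortex held 168, 270 and 290. Cerebellum was below cortex by -2.34 ± 0.12 on the log2 scale (edgeR, adjusted p = 2.11e-14) and below hippocampus by -1.58 ± 0.12 (adjusted p = 2.44e-11), and hippocampus was below cortex by -0.77 ± 0.12 (adjusted p = 1.39e-05). Homer3, a paralog, had the opposite order, with 252 CPM in cerebellum, 45.9 in hippocampus and 6.5 in cortex. Homer1 also yields a short activity-induced form that lacks the coiled coil of the long forms, and counts per gene cannot separate it from them.

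The core of the site bound by cAMP-responsive factors was searched for before 1 start of Homer1, since this gene responds to synaptic activity. The window lies inside the gene as annotated for the counts. The window is chr13:93303507-93303756 (GRCm38, plus strand), the 250 bases before 1 of its RefSeq starts, and capitals mark the core TGACG, searched on both strands.
Homer1: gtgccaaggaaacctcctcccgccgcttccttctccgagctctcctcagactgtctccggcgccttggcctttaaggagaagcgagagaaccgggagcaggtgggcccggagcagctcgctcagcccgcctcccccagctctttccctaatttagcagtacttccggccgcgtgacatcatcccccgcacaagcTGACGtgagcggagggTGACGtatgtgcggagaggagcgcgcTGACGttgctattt
The core begins at positions -56, -40 and -14 relative to that start. It occurs in 17.8% of the 32851 RefSeq mouse windows of this length. Of the 5 genes that had a window, Synpo2 and Dlg4 also held it, once each, at -60 and -76. The match describes letters only and gives no evidence of binding.

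Dlg4 and Shank1 were each about as high in hippocampus as in cortex and lower in cerebellum. Dlg4 was 277, 295 and 311 CPM at its lowest, median and highest in Gnb5+/+ cerebellum, 658, 705 and 716 in hippocampus, while cortex held 665, 723 and 760. Shank1 was 283, 310 and 329 CPM in cerebellum, 508, 569 and 605 in hippocampus, and 516, 604 and 718 in cortex. For both genes no cerebellar library reached a forebrain library, with log2 differences from cortex of -1.28 ± 0.26 for Dlg4 and -0.98 ± 0.29 for Shank1 (edgeR, adjusted p = 1.27e-04 and 0.00494). Dlgap1 peaked in hippocampus at 627, 645 and 700 CPM, against 523, 535 and 552 in cortex and 362, 379 and 397 in cerebellum. Its 3 regions did not overlap, and the log2 difference was -0.50 ± 0.09 between cerebellum and cortex (adjusted p = 2.14e-05) and 0.28 ± 0.09 between hippocampus and cortex (adjusted p = 0.0169). The latter missed the threshold without the mouse of wild-type replicate 2 or 6 (adjusted p = 0.0502 and 0.0737).

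Shank2, Shank3 and Synpo2 differed less between the 3 regions. Shank2 was 337, 361 and 388 CPM in cerebellum, 267, 291 and 318 in hippocampus, and 310, 321 and 414 in cortex. Shank3, the Shank whose loss of 1 copy is known from Phelan-McDermid syndrome, was 224, 256 and 279 CPM in cerebellum, 255, 283 and 302 in hippocampus, and 233, 281 and 301 in cortex. Cerebellum and cortex overlapped for both genes, with log2 differences of 0.09 ± 0.27 (95% interval -0.472 to 0.652) and -0.13 ± 0.35 (-0.846 to 0.588). Neither passed the test in the fit of 36 libraries, and both were called in Gnb5+/+ libraries alone. In hippocampus Shank2 lay below every cerebellar library, a log2 difference of 0.31 ± 0.27 for cerebellum over hippocampus that was not called in the fit of 36 libraries (adjusted p = 0.336) and was called in Gnb5+/+ libraries alone (adjusted p = 5.24e-07). Synpo2 was 10.2, 11.6 and 12.1 CPM in cerebellum, 6.88, 8.89 and 10.9 in hippocampus, and 7.85, 9.24 and 11.4 in cortex. In the fit of all 36 brain libraries it was the only one of the 9 called higher in cerebellum, against hippocampus (log2 difference 0.37 ± 0.13, edgeR, adjusted p = 0.0221). That call was lost with no filter on low counts (adjusted p = 0.0590) and without the mouse of wild-type replicate 2, 3 or 5 (adjusted p = 0.0740, 0.0719 and 0.0747). Without the 3 libraries that stood apart Shank2 was also called higher in cerebellum than in hippocampus (adjusted p = 8.45e-06), and Synpo2 higher than in cortex (log2 difference 0.27 ± 0.08, adjusted p = 0.00496).

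Counted together, 6 of the 9 genes were called between cerebellum and cortex, all lower in cerebellum, where 62.1% of all genes tested were called and 32.7% were lower. Between cerebellum and hippocampus 7 were called, 6 of them lower in cerebellum, beside 60.9% of all genes and 31.6% lower. Between hippocampus and cortex 2 were called, beside 26.6% of all genes. The shares of the genes called were thus near those of all genes, and the sizes and signs are what the values above describe. The fit held all 36 brain libraries, and its standard errors take in the 3 that stood apart. In the Gnb5+/+ libraries alone, all 9 were called between cerebellum and either forebrain region, and 6 between hippocampus and cortex. The share of all genes called in that wild-type fit is not given here, so its counts are not read as particular to the 9. With only those 3 libraries left out, 7, 9 and 5 of the 9 were called, beside 78.7%, 78.2% and 53.1% of all genes.

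**Figure D1:**
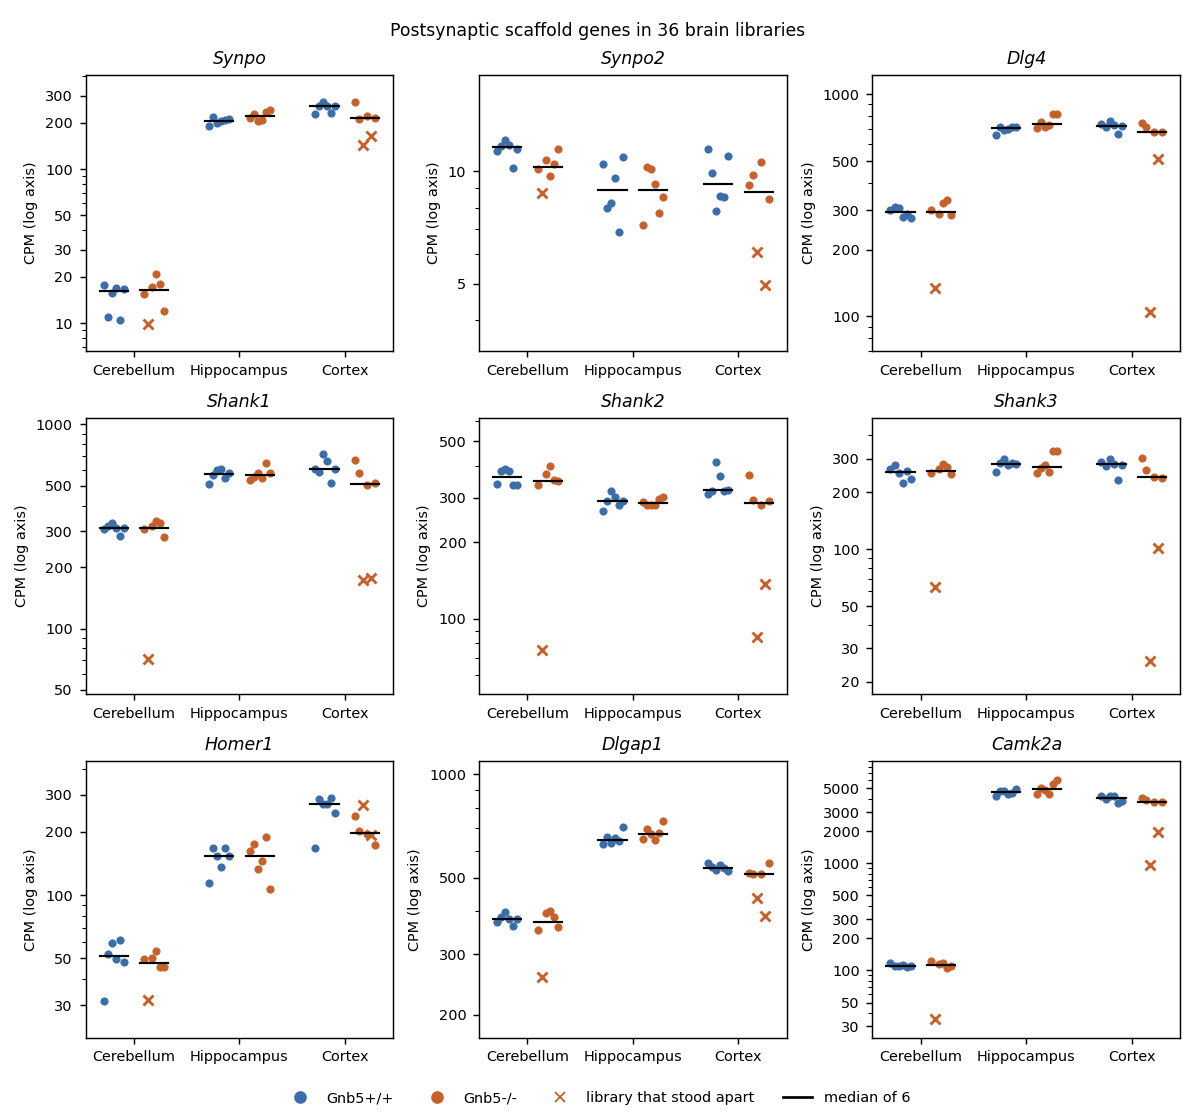
CPM of the 9 genes (log axes) in each of the 36 brain libraries, by region, with Gnb5+/+ in blue, Gnb5-/- in orange, crosses for the 3 libraries that stood apart and bars at the median of 6. Synpo, Camk2a and Homer1 are lowest in cerebellum in both genotypes, and the crosses lie below the other points for Shank1, Shank2 and Shank3.

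Levels of different genes were compared per kilobase of merged exon. In Gnb5+/+ cerebellum the Shanks led, with Shank2 at 33.5, Shank1 at 29.4 and Shank3 at 27.5 CPM per kb, and neighbours in this order overlapped. Dlg4 and Dlgap1 followed at 22.2 and 21.2 and also overlapped, then Camk2a at 14.9, Homer1 at 4.21, Synpo at 1.54 and Synpo2 at 0.873. In hippocampus Camk2a led at 617 CPM per kb, ahead of Shank1 at 53.8 and Dlg4 at 52.7, which overlapped, and Synpo at 21.5 stood above Homer1 at 12.4. In cortex Camk2a was at 538, Shank1 at 58.4 and Dlg4 at 54.3, and Synpo at 26.2 and Homer1 at 21.3 overlapped. Synpo2 was last in every brain region, at 0.687 CPM per kb in hippocampus and 0.730 in cortex.

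The mix of Shank genes changed between regions. Within a library the count ratio of Shank2 to Shank1 averaged 1.17 in Gnb5+/+ cerebellum, 0.516 in hippocampus and 0.556 in cortex, and it was higher in cerebellum than in cortex in 6 of 6 mice (mean log2 difference 1.07, SD 0.08). The ratio of Shank3 to Shank1 averaged 0.819, 0.498 and 0.452, again higher in cerebellum than in cortex in 6 of 6 mice (0.85, SD 0.11). An exact two-sided sign-flip permutation test over the 6 mice gave p = 0.03125, the smallest it can give, for 8 of the 9 region comparisons of these 2 ratios and of Camk2a to Camk2b, adjusted to 0.0352 over the 9. The exception was Shank2 to Shank1 between hippocampus and cortex (exact p = 0.0625). Between genotypes none of the 9 comparisons of these ratios passed the exact permutation test (smallest p = 0.0671, adjusted 0.604). That smallest value was the ratio of Camk2a to Camk2b in cortex, which was below the Gnb5+/+ mean in 6 of 6 Gnb5-/- libraries, 2 of them libraries that stood apart (log2 difference -0.42). Without those 2 it was -0.08, below the mean in 4 of 4 (exact permutation p = 0.295), and the smallest adjusted p of the 9 comparisons without the libraries apart was 0.838.

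**Figure D2:**
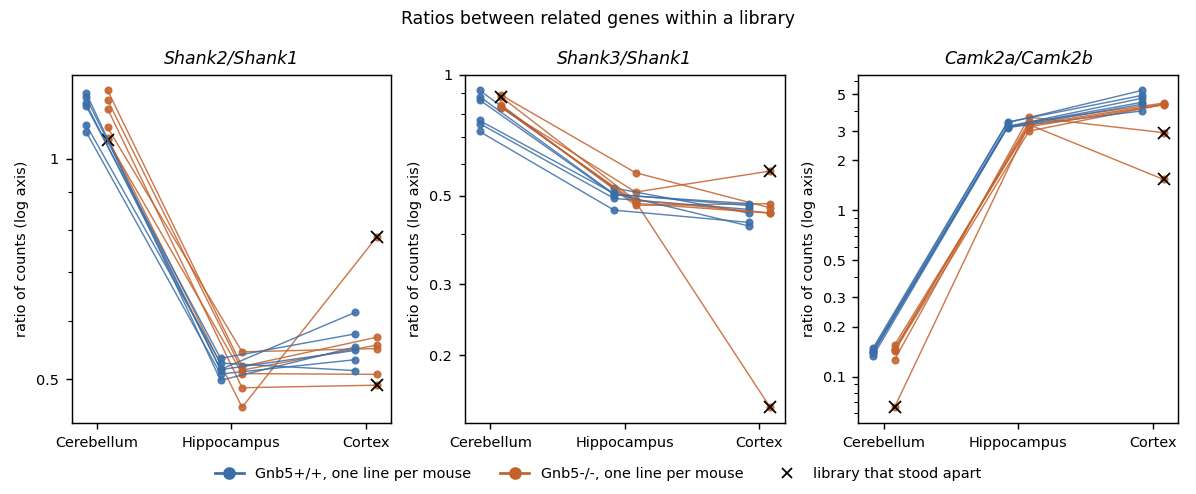
Count ratios within each brain library (log axes) for Shank2 to Shank1, Shank3 to Shank1 and Camk2a to Camk2b, 1 line per mouse, Gnb5+/+ in blue and Gnb5-/- in orange, with crosses on the 3 libraries that stood apart. Both Shank ratios are highest in cerebellum, at means of 1.17 and 0.819 in Gnb5+/+, and the Camk2a to Camk2b ratio is lowest there at 0.141.

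The genes around the 9 were read from 5 lists, of paralogs, other postsynaptic density proteins, actin partners of synaptopodin, receptors and adhesion molecules held by the scaffolds, and scaffolds of inhibitory synapses. Between Gnb5+/+ cerebellum and cortex, 16 of 20 other postsynaptic density genes were lower in cerebellum and 0 higher, with a median log2 difference of -1.69 beside -0.03 over all genes. Of the 12 paralogs 7 were lower and 2 higher, of the 12 actin partners 7 and 3, of the 15 receptors and adhesion molecules 8 and 3, and of the 6 inhibitory scaffolds 4 and 1, where 32.7% of all genes were lower. The extremes were Nrgn, the calmodulin-binding neurogranin, at -8.84 and Dlgap2, a paralog of Dlgap1, at -6.26, and on the other side Homer3 at 5.29. Against hippocampus the extremes were Nrgn at -8.54, Dlgap2 at -5.88, Itpr1, the calcium channel of the endoplasmic reticulum, at 3.10 and Homer3 at 2.46, and 53 of the 65 genes were called, beside 60.9% of all genes.

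Hippocampus and cortex differed less across these lists, with 28 of the 65 genes called beside 26.6% of all genes. Camk2d, another subunit of the kinase, was lower in hippocampus by a log2 difference of -1.74, as was Magi1, a membrane scaffold, at -0.92. Homer3 was higher there at 2.82 and Gria1, an AMPA receptor subunit, at 1.67. Of the receptors and adhesion molecules 7 of 15 were higher in hippocampus and 1 lower, with a median log2 difference of 0.32 beside -0.02 over all genes.

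Likeness of pattern was read as the Pearson r of log2 CPM over the 36 brain libraries, among 19388 genes, as a description, since these libraries share regions, mice and depth. Nearest to Synpo was Lhx6 (r = 0.995), to Camk2a B3gat1 (0.996), to Dlg4 Celf3 (0.984) and to Homer1 Nptx2 (0.973). Nearest to Shank2 was Ubr4 (0.973), to Shank3 Gcn1l1 (0.988), to Dlgap1 Atp2b1 (0.985) and to Shank1 Gm43951 (0.980). Synpo2 had no close partner, its best being 6820431F20Rik at 0.821. Over the 33 libraries that did not stand apart, Shank3 and Dlgap1 had the same nearest gene, at 0.757 and 0.993, and the other 7 had a different one, with Igf1r nearest to Shank2 (0.891). Over the deviations from group means in those 33, Dlg4 and Shank3 had r = 0.84 and Shank1 and Shank2 0.79, and Homer1 had between -0.39 and 0.34 with the other 8.

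The central question for these genes was whether loss of Gnb5 changed them, Synpo among them, in each brain region. None of the 9 was called in any region (edgeR quasi-likelihood test), where 0.0817% of all genes tested were called in cerebellum, 0.165% in hippocampus and 0.0557% in cortex. The Gnb5-/- and Gnb5+/+ libraries overlapped for every gene in every region, where 1.13%, 0.677% and 0.573% of all genes did not overlap. An unadjusted p below 0.05 was found for 0 in cerebellum, 2 in hippocampus and 0 in cortex, beside 5.85%, 7.7% and 7.39% of all genes. DESeq2 also called 0 in each, with an unadjusted p below 0.05 for 1, 2 and 1. Of the 65 genes in the other lists 64 could be tested, and 0 were called in each region by either tool, with an unadjusted p below 0.05 for 5, 7 and 1 by edgeR and 6, 8 and 2 by DESeq2.

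In cerebellum Synpo was 9.84, 16.3 and 20.7 CPM at its lowest, median and highest in Gnb5-/-, around the 10.5, 16.1 and 17.8 of Gnb5+/+. The log2 fold change was 0.07 ± 0.19 (95% interval -0.343 to 0.492, edgeR, adjusted p = 0.852), and without the library that stood apart 0.18. The other 8 genes had log2 fold changes of -0.20 to -0.08 with that library. Its levels were low: 71.3 CPM of Shank1, 75.6 of Shank2 and 62.9 of Shank3, where the other 5 Gnb5-/- libraries held 281 to 334, 337 to 402 and 250 to 281. Without it the fold changes of Shank1, Shank2 and Shank3 were 0.03, 0.01 and 0.07, those of Dlg4 and Camk2a were 0.06 and 0.05, and those of Homer1 and Dlgap1 were -0.04 and 4.83e-05. Synpo2 was -0.17 ± 0.08 with all libraries and -0.12 without that one, with 5 of 6 Gnb5-/- libraries below the Gnb5+/+ mean (adjusted p = 0.583).

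In hippocampus, where no library stood apart, the 95% intervals were narrower than in cerebellum and cortex for every gene but Synpo2. Dlg4 was 704, 739 and 818 CPM at its lowest, median and highest in Gnb5-/-, against 658, 705 and 716 in Gnb5+/+. All 6 Gnb5-/- libraries lay above the Gnb5+/+ mean, yet the log2 fold change was 0.11 ± 0.04 (95% interval 0.017 to 0.197, adjusted p = 0.579). Synpo was 204, 221 and 241 CPM against 190, 206 and 218, a log2 fold change of 0.10 ± 0.05 (0.005 to 0.200, adjusted p = 0.642). Camk2a was 4441, 4922 and 6027 CPM against 4252, 4641 and 4909, a log2 fold change of 0.13 ± 0.07 (-0.021 to 0.276, adjusted p = 0.696). These 3 were the largest in size of the 9 in hippocampus, and Shank1, Shank2, Shank3, Homer1, Synpo2 and Dlgap1 lay between -0.03 and 0.05.

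In cortex all 9 log2 fold changes were below 0, from -0.14 for Dlgap1 to -0.50 ± 0.42 for Shank3 (95% interval -1.408 to 0.401), with adjusted p from 0.474 to 0.573. The sign was shared, and the size rested on 2 libraries. Shank3 was 25.6 CPM in replicate 3 and 101.1 in replicate 5, and 239 to 302 in the other 4 Gnb5-/- libraries, against 233 to 301 in Gnb5+/+. Dlg4 was 104.6 and 512.1 CPM in these 2, and 678 to 744 in the other 4, against 665 to 760. Without both libraries the log2 fold changes were -0.08 for Shank3, -0.03 for Dlg4, -0.12 for Shank1, -0.14 for Shank2, -0.06 for Camk2a, -0.12 for Synpo, -0.03 for Dlgap1 and -0.01 for Synpo2.

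Homer1 was the gene in cortex whose value did not shrink when those 2 libraries were left out. It was 173, 199 and 268 CPM at its lowest, median and highest in Gnb5-/- cortex and 168, 270 and 290 in Gnb5+/+. The log2 fold change was -0.27 ± 0.14 (95% interval -0.578 to 0.037, edgeR, adjusted p = 0.474) with all libraries and -0.34 ± 0.13 (-0.617 to -0.053, adjusted p = 0.979) without both. The lowest Gnb5+/+ value, 168 CPM in replicate 1, lay below all 6 Gnb5-/- libraries, and the next was 245. The highest Gnb5-/- value, 268 CPM, came from replicate 3, which stood apart, and lay above 245. Neither fit called the gene.

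**Figure D3:**
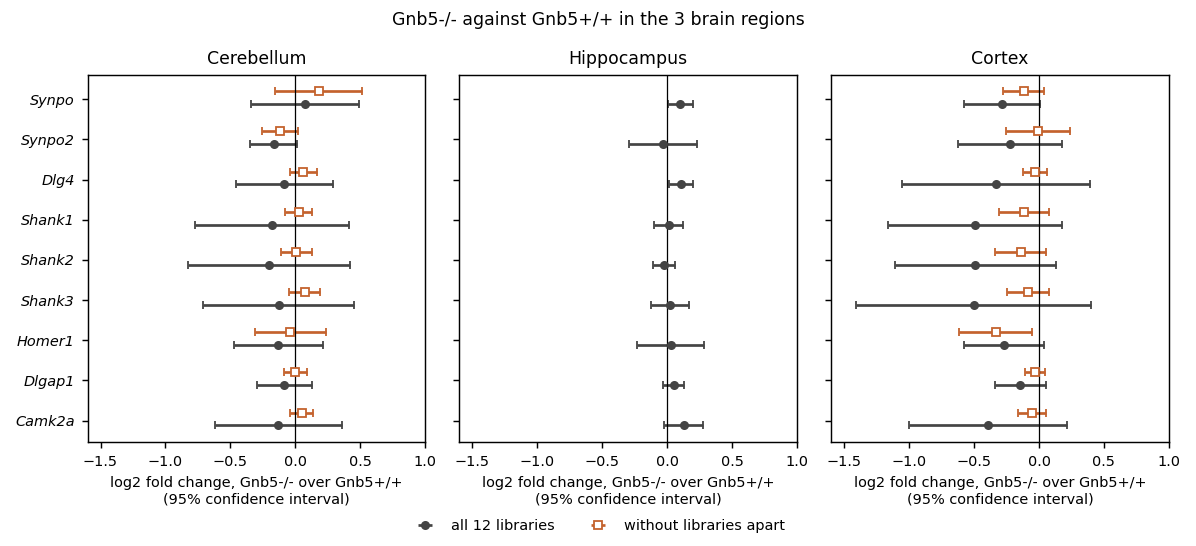
Log2 fold change of Gnb5-/- over Gnb5+/+ (x axis) with its 95% confidence interval for each of the 9 genes in 3 brain regions, with all 12 libraries (filled circles) and without the libraries that stood apart (open squares). In cortex the intervals for Shank3 run from -1.408 to 0.401 with all libraries and narrow when 2 libraries are left out, and no gene passed the adjusted test in either fit.

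Exact two-sided permutation tests of the mean log2 CPM were run for the 9 genes in 5 tissues, over all divisions of 12 mice into 6 and 6. Of these 45 tests 6 had an unadjusted p below 0.05, and 0 passed after adjustment over the 45 (smallest adjusted permutation p = 0.282). The 6 were Synpo and Dlgap1 in cortex (exact p = 0.0455 each), Synpo2 in cerebellum (0.0303) and atria (0.0498), Dlg4 in hippocampus (0.0195) and Shank1 in ventricles (0.0216). Without the libraries that stood apart 3 of the 45 had an unadjusted p below 0.05, those of Dlg4 in hippocampus, Synpo2 in atria and Shank1 in ventricles, and 0 passed after adjustment (smallest adjusted permutation p = 0.455). Synpo and Dlgap1 in cortex then had an exact permutation p of 0.200 each, over 4 and 6 libraries, and Synpo2 in cerebellum 0.0606.

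The effect of genotype was also compared between regions, as an interaction with each mouse as a block. None of the 9 was called for cerebellum against cortex, cerebellum against hippocampus or hippocampus against cortex, where 0.00992%, 0.0248% and 0.0% of all genes were called (edgeR). The unadjusted p was below 0.05 for 0 of the 9 in each by edgeR and by DESeq2, beside 3.67%, 3.79% and 4.39% of all genes by edgeR. Without the 3 libraries that stood apart 0 of the 9 were called again, while 15, 18 and 3 of 20348 genes were, against 2, 5 and 0 of 20153 with all libraries. The unadjusted p by edgeR was then below 0.05 for 1, 0 and 3 of the 9, beside 10.6%, 9.63% and 6.80% of all genes. These were Homer1 for cerebellum against cortex (log2 difference 0.32, adjusted p = 0.342), and Homer1 (0.34), Camk2a (0.19) and Dlg4 (0.14) for hippocampus against cortex (adjusted p = 0.595, 0.732 and 0.728). In Gnb5-/- mice 6, 6 and 3 of the 9 genes were called between the same pairs of regions, beside 60.8%, 60.4% and 32.6% of all genes, and without the 3 libraries 7, 8 and 3, beside 73.0%, 76.7% and 46.2%.

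The 3 libraries that stood apart differed from their groups by transcript length, with short and long genes shifted in opposite directions. Genes of 1 to 2 kb of merged exon were higher in them than in the other libraries of their group, by a median of 0.90, 0.85 and 0.45 on the log2 scale for cerebellum replicate 2, cortex replicate 3 and cortex replicate 5. Genes of 8 kb and above were lower, by -0.70, -0.70 and -0.42, where the medians of the other 33 libraries lay between -0.08 and 0.06. Of the 9 genes, 8 have over 8 kb of merged exon, and Camk2a has 7465 bases. In each of the 3 libraries 7 of the 9 genes deviated from their group by more, downward, than in any of the other 33.

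The 9 genes did not move equally there. Shank3 was lower than its group by -2.07, -3.29 and -1.31 on the log2 scale, Shank1 by -2.16, -1.65 and -1.63, and Dlg4 by -1.17, -2.74 and -0.44. Homer1, at 11976 bases of exon, stood at -0.65, 0.43 and -0.03, and Dlgap1, the longest at 17890 bases, at -0.58, -0.24 and -0.41. Marker genes of other cells moved in the same libraries: the sum of 6 inhibitory neuron genes was 2794 CPM in the cerebellar library against 1337 to 1464 in the other Gnb5-/- cerebella, and 1162 to 2152 in the cortical 2 against 917 to 982. The choroid plexus list summed to 889.8 CPM in the cerebellar library against 13.1 to 20.4, and to 35.97 and 348.2 in the cortical 2 against 15.2 to 721.1. The forebrain excitatory neuron list summed to 935 to 1099 in the cortical 2 against 1387 to 1503. The part of length, depth or cell mix in these values was not tested.

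**Figure D4:**
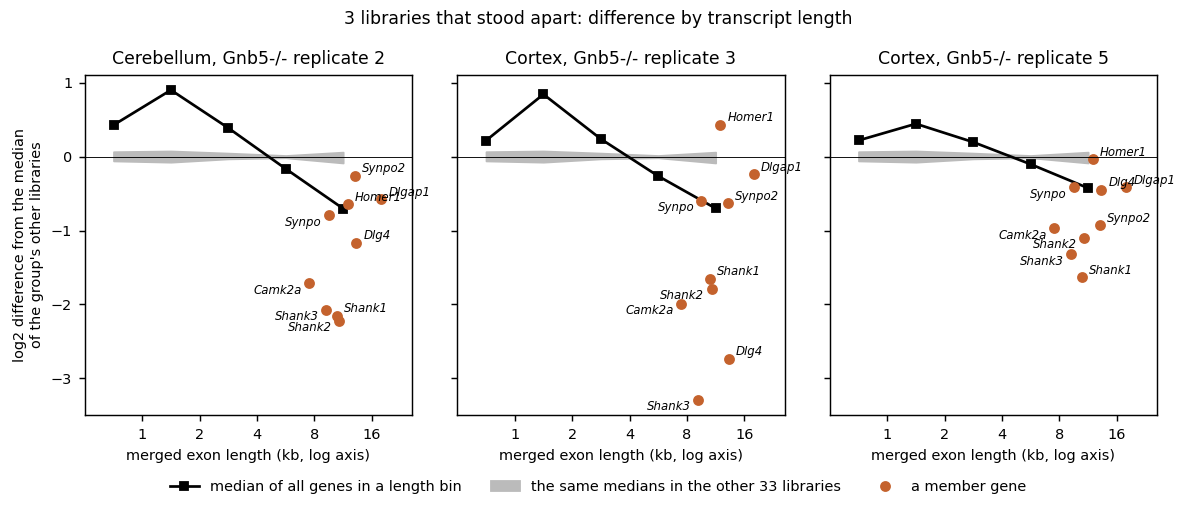
For each of the 3 libraries that stood apart, the log2 difference of a gene from the median of its group's other libraries (y axis) against merged exon length in kb (log x axis). Black squares are medians of all genes in 5 length bins, the grey band their range in the other 33 libraries, and orange points the 9 genes, of which Shank3 in cortex replicate 3 is lowest at -3.29.

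In the heart the order of the 9 genes by mean was turned over, and Synpo2 led. Per kilobase of exon Synpo2 was at 13.3 CPM in Gnb5+/+ atria and 16.96 in ventricles, followed by Synpo at 8.20 and 11.6. The ranges of Synpo2 and Synpo overlapped in ventricles and not in atria. Camk2a was at 6.88 and 7.49 CPM per kb, Homer1 at 6.33 and 4.53, and Shank3 at 3.51 and 5.48. Neighbours overlapped from Synpo through Camk2a to Homer1 in atria, and from Camk2a through Shank3 to Homer1 in ventricles. Shank1, Dlg4, Shank2 and Dlgap1 were all below 1 CPM per kb in both chambers. The heart libraries carried cardiomyocyte markers, 34965 to 40546 CPM in Gnb5+/+ atria and 43419 to 53781 in ventricles for the summed list.

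Synpo2 was 143, 174 and 197 CPM at its lowest, median and highest in Gnb5+/+ atria and 192, 210 and 269 in ventricles, far above the 6.88 to 12.1 of the brain libraries. Between the mean of the 2 heart tissues and that of the 3 brain regions the log2 difference was 5.11 ± 0.06 (edgeR, adjusted p = 1.54e-31). All 9 genes were called in this comparison, beside 90.8% of all genes tested. Synpo2l, a further relative known from cardiac and skeletal muscle, was 321 CPM in atria and 164 in ventricles.

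The 250 bases before the RefSeq start of Synpo2, chr3:123236150-123236399 on the minus strand of GRCm38, are shown because the gene was the 1 of the 9 far higher in heart. Capitals mark a MEF2 site, the sequence bound by a family of muscle transcription factors, searched on both strands.
Synpo2: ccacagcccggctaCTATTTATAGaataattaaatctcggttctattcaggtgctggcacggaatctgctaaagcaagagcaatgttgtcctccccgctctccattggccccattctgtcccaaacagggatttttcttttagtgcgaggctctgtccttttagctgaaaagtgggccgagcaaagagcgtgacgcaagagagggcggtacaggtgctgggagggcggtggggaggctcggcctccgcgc
The site begins at position -236 relative to the start, overlaps a TATAAA on the opposite strand, and reads as a site on both strands. A MEF2 site occurs in 2.92% of all such windows, and no other of the 5 genes with a window had one. The match describes letters only.

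In brain, 2 libraries held traces of heart transcripts. The cardiomyocyte list summed to 303.5 CPM in Gnb5+/+ hippocampus replicate 6 and to 90.3 in cerebellum replicate 6, and to at most 7.28 in the other Gnb5+/+ brain libraries. Synpo2 was 10.9 CPM in that hippocampal library, the highest of its group, and 11.5 in the cerebellar one, within its group. The part of these transcripts in the Synpo2 values of brain was not tested.

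Synpo was also well expressed in heart, at 59.2, 79.6 and 96.2 CPM in Gnb5+/+ atria and 92.6, 110 and 141 in ventricles, between the cerebellar and the forebrain levels. Its log2 difference between the heart and brain means was 0.83 ± 0.08, and with library totals in place of TMM it was -0.01, so no direction is drawn. The median of all genes in this comparison was -0.25 with TMM and -1.09 with library totals. Homer1 had a log2 difference of -0.13 ± 0.06 (adjusted p = 0.0394, and 0.167 without the mouse as a block), and of -0.98 ± 0.07 with library totals (adjusted p = 1.36e-14). Shank3 was lower in heart by -1.93 ± 0.07, Camk2a by -3.76 ± 0.06, Dlg4 by -5.63 ± 0.06, Shank1 by -5.84 ± 0.10, Shank2 by -7.36 ± 0.08 and Dlgap1 by -8.14 ± 0.10. In muscle the Camk2a locus also gives alpha-KAP, an anchoring protein made from an internal start, and counts per gene cannot separate it from the kinase.

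The chambers of the heart differed in 8 of the 9 genes in Gnb5+/+ mice, beside 52.4% of all genes. Shank2 stood out, with 4.99, 5.30 and 7.15 CPM at its lowest, median and highest in atria and 0.0415, 0.215 and 0.369 in ventricles, where it had 1 to 13 reads per library. The log2 difference of ventricles from atria was -4.63 ± 0.24 (edgeR, adjusted p = 6.65e-14). Dlgap1 was lower in ventricles by -1.36 ± 0.25, Shank1 by -1.01 ± 0.18, Dlg4 by -0.72 ± 0.10 and Homer1 by -0.47 ± 0.12. Shank3 was higher in ventricles, by 0.64 ± 0.14, as were Synpo by 0.51 ± 0.08 and Synpo2 by 0.35 ± 0.10. Camk2a did not pass the test (0.12 ± 0.09, adjusted p = 0.243). Beside these, a list of forebrain excitatory neuron genes summed to 172 to 244 CPM in Gnb5+/+ atria and 18.0 to 34.9 in ventricles, and a list of peripheral and intracardiac neuron genes to 12.2 to 20.3 and 2.2 to 6.0. Nearly all of the first sum was Slc17a7, a vesicular glutamate transporter, at 172.1 to 243.9 CPM in atria and 17.5 to 34.5 in ventricles, the 1 of its 6 genes at or above a mean of 1 CPM, and Neurod2, Neurod6, Tbr1 and Emx1 were at 0 in ventricles. In the second, Dbh, the enzyme that makes noradrenaline, was at 10.5 to 20.0 and 2.08 to 5.82 CPM and no other gene reached a mean of 1 CPM, and Chat and Th were at 0 in ventricles. The part of nerve cells in the atrial values was not tested.

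Loss of 1 or both copies of Gnb5 moved none of the 9 genes past the test in the heart. In atria 0 of 9 were called in Gnb5-/- and 0 of 9 in Gnb5+/-, beside 0.253% and 0.0124% of all genes (edgeR). In ventricles 8 could be tested, since Shank2 had too few reads for the filter, and 0 were called in either genotype, beside 0.188% and 0.0202%. The unadjusted p was below 0.05 for 0 and 2 in atria and for 1 and 2 in ventricles, beside 8.15%, 7.22%, 4.78% and 4.84% of all genes, and DESeq2 gave the same 4 numbers and called 0. No gene had groups that did not overlap, against 0.63% and 0.204% of all genes in Gnb5-/- and Gnb5+/- atria and 0.545% and 0.155% in ventricles. Replicate 4 of Gnb5+/- ventricles had 2.85% of its reads outside genes, against 4.61% to 4.81% in the others of its group. It is kept in the Gnb5+/- values below, and 0 of the 9 were called in Gnb5+/- ventricles with any 1 library left out.

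Some genes had all 6 libraries of a genotype above, or all 6 below, the wild-type mean without being called. The share of all genes that did so is not given here, so these cases are a description only. Camk2a was 39.3, 44.7 and 49.3 CPM in Gnb5-/- atria and 44.2, 50.5 and 60 in Gnb5+/+, below the Gnb5+/+ mean in 6 of 6 libraries (log2 fold change -0.19 ± 0.09, adjusted p = 0.626). Shank1 was 3.57, 4.65 and 5.39 CPM in Gnb5-/- ventricles and 2.77, 3.00 and 4.95 in Gnb5+/+, above the mean in 6 of 6 (0.46 ± 0.22, 95% interval 0.011 to 0.907, adjusted p = 1). Homer1 in Gnb5+/- atria was 50.7, 61.2 and 70.1 CPM against 56.3, 74.6 and 104 in Gnb5+/+, below the mean in 6 of 6 (-0.32 ± 0.11, -0.555 to -0.082, adjusted p = 0.630). Synpo in Gnb5+/- was also below the Gnb5+/+ mean in 6 of 6 libraries, in atria (-0.23 ± 0.10) and in ventricles (-0.27 ± 0.10), with adjusted p = 0.666 and 0.961. Homer1 in Gnb5-/- ventricles was at most 50.6 CPM, below the Gnb5+/+ mean of 54.3. Shank3 and Dlg4 in Gnb5+/- ventricles were at most 46.3 and 4.64 CPM, below the Gnb5+/+ means of 50.4 and 4.75. The effect of Gnb5-/- was compared between chambers as an interaction, and 0 of the 9 were called (adjusted p 0.843 to 1, edgeR) beside 0.0% of all genes. The unadjusted p was below 0.05 for 1 of them, Shank1, beside 3.86% of all genes, and DESeq2 called 0 as well.

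Across all the lists, marker genes included, 1 gene was called between genotypes: Drd2, the D2 dopamine receptor, in the striatal marker list (edgeR, adjusted p = 0.0398). It was 2.80 to 5.75 CPM in Gnb5-/- ventricles (mean 4.26, SD 1.04) and 1.74 to 2.75 in Gnb5+/+ (mean 2.35, SD 0.380), without overlap, and in Gnb5-/- cortex 22.7 to 32.7 CPM against 11.9 to 37.9. The paper, with DESeq2, reported Drd2 and the cardiomyocyte marker Tnnt2 as higher in Gnb5-/- ventricles. It also reported Grin2a, of the receptor list, as changed in cerebellum. Tnnt2 and Grin2a were not called here by edgeR.

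**Figure D5:**
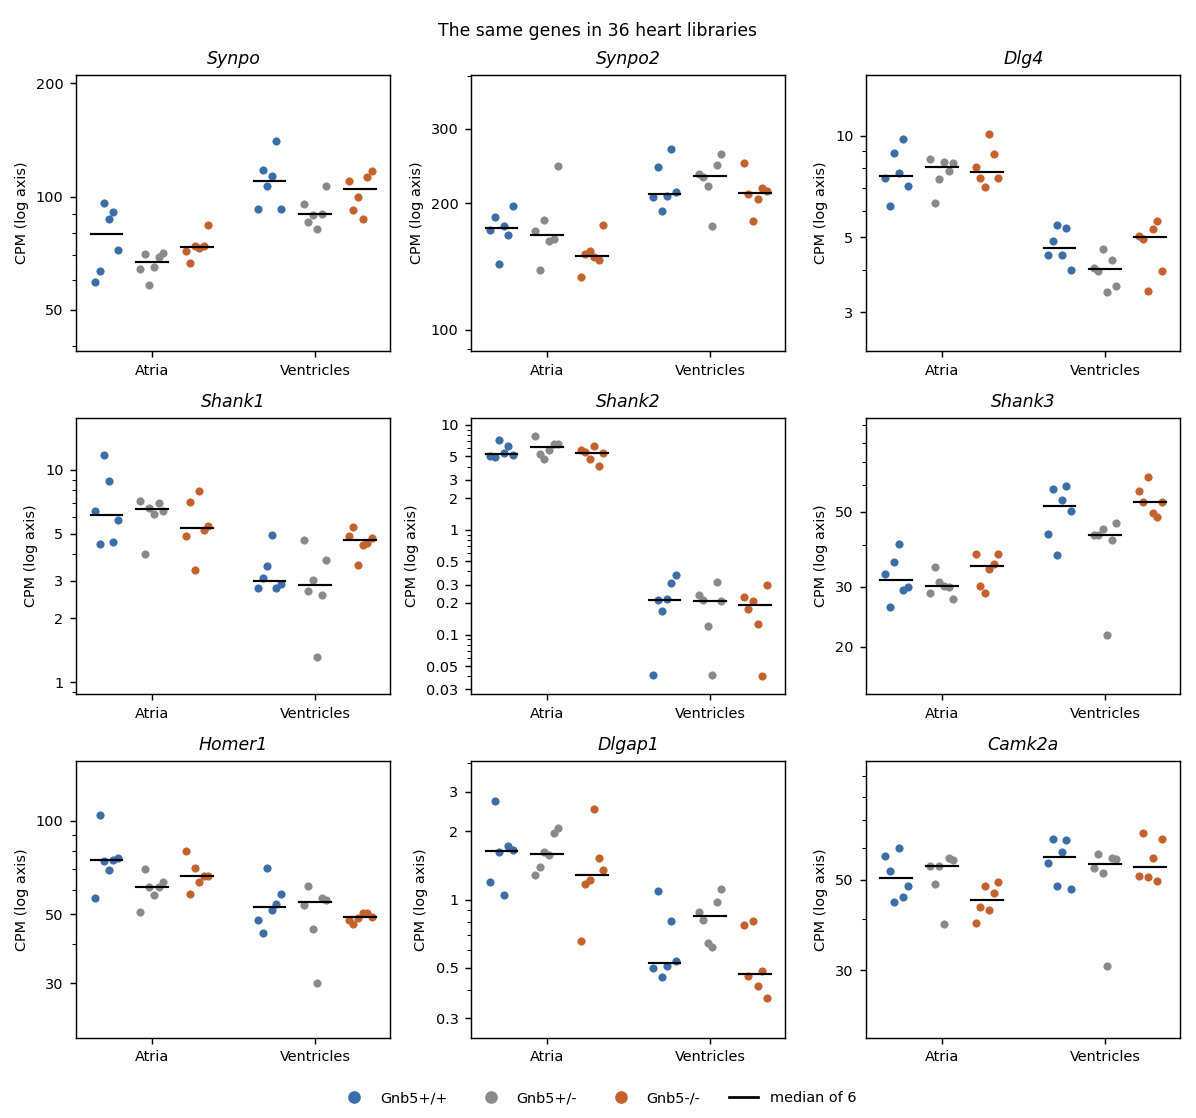
CPM of the 9 genes (log axes) in each of the 36 heart libraries, by chamber, with Gnb5+/+ in blue, Gnb5+/- in grey, Gnb5-/- in orange and bars at the median of 6. Shank2 falls from 4.99 to 7.15 CPM in Gnb5+/+ atria to at most 0.369 in ventricles, Synpo2 is highest of the 9 in both chambers, and the genotypes overlap for every gene.

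The genes lie on 7 chromosomes of GRCm38, and reads ambiguous between overlapping genes were kept apart from the counts. Shank1 and Shank2 share chromosome 7, at chr7:44310253-44360572 and chr7:144001928-144424494, both on the plus strand, and Synpo (chr18:60593973-60660142, minus) lies near Camk2a (chr18:60925618-60988152, plus). The others are Synpo2 at chr3:123076519-123236149 (minus), Dlg4 at chr11:70016942-70047522, Homer1 at chr13:93299635-93405129, Shank3 at chr15:89499623-89560261 and Dlgap1 at chr17:69969073-70821413 (all plus). Synpo and Dlg4 overlap no annotated gene. Shank3 overlaps the antisense Gm15609 and Dlgap1 the antisense 5031415H12Rik, and Synpo2, Homer1, Shank1, Shank2 and Camk2a overlap 1 or more genes on their own strand, whose shared reads cannot be assigned here.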

How the data were processed

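Read counts per gene were deposited for each of the 72 libraries. The authors made them from stranded total RNA libraries, trimming reads with cutadapt 1.8, aligning them to GRCm38 with STAR 2.5.3a and counting with HTSeq 0.9.1 on Ensembl genes, without normalization. The strand setting of the counting is not given in the sources used here. Of 53715 gene identifiers, 53620 were matched to symbols. Between 29204390 and 48807435 counts per library lay on genes, and precision was taken from the spread between mice.

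Groups came from the sample labels. Genotypes were compared within a tissue with edgeR 4.0.16 (quasi-likelihood test, TMM, filterByExpr, count minimum 10, adjusted p below 0.05 over all genes tested) in R 4.3.3. Regions and chambers were compared with the mouse as a block, since the labels number the mice. The deviations of the same mouse from the group means correlated above 0.1 in 12 of 12 mice between cerebellum and hippocampus, 11 of 12 between hippocampus and cortex, 9 of 12 between cerebellum and cortex and 18 of 18 between chambers. Single values and ratios were tested by exact permutation (scipy 1.17.1). Alternatives were DESeq2 1.42.0, other scalings and filters, and leaving out libraries, or a whole mouse in comparisons between brain regions. Leaving out the libraries that stood apart together and the fit of Gnb5+/+ libraries alone were chosen after seeing the data. The tests were checked on simulated counts. Of 50 genes changed by 0.5 on the log2 scale, 31 were found between genotypes in hippocampus. In the interaction of genotype with cerebellum against cortex 15 of 50 were found. At a log2 change of 2 these numbers were 50 and 42. Changes below 0.5 were not simulated, so small changes could be missed.

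All 9 genes entered every comparison, save Shank2 between genotypes in ventricles, but not every value is printed. Of the other listed genes, those called between genotypes and the 2 with the largest difference each way between Gnb5+/+ regions are named, and for each of the 9 the first of the 3 genes of highest r. Camk2b and Synpo2l are named as relatives. The results of some genes that these rules select are not reported here. The genes and lists were chosen with earlier results of these data known. Promoter windows are from RefSeq (GRCm38.p6). Transcript forms and proteins were not analysed here.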

Additional observations from a re-analysis of the deposited data

Results flagged for a closer look

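Of 108 groups of 6 libraries, each gene in each group, 13 held a library far from the other 5 by Dixon's criterion, which chance alone flags in about 1 of 20 groups. Of the 13, 7 were in the libraries that stood apart. In Gnb5-/- cerebellum replicate 2 these were Dlg4 at 133.9 CPM, Shank1 at 71.3, Shank2 at 75.6, Shank3 at 62.9, Dlgap1 at 257 and Camk2a at 35.3. In Gnb5-/- cortex replicate 3 it was Dlg4 at 104.6 CPM.

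The other 6 lay elsewhere. Among Gnb5+/+ cortical libraries Homer1 was 168 CPM in replicate 1 (others 245 to 290) and Shank3 was 233 in replicate 5 (others 276 to 301). In Gnb5+/- ventricles replicate 4 was low for Shank3, at 21.7 CPM (others 41.1 to 46.3), and for Camk2a, at 30.7 (others 51.9 to 57.8). That library also had 2.85% of its reads outside genes, against 4.61% to 4.81% in the others of its group. In Gnb5+/- atria Shank1 was 4.00 CPM in replicate 2 (others 6.22 to 7.11). In Gnb5+/+ ventricles Shank1 was 4.95 CPM in replicate 4, above the 2.77 to 3.53 of the others. Causes were not tested.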

How the results depend on the processing

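In every alternative run, 0 of the 9 genes were called between genotypes in any tissue. Leaving out 1 library turned the sign of small log2 fold changes of Gnb5-/- over Gnb5+/+. In cerebellum the ranges were -0.20 to 0.048 for Camk2a, -0.15 to 0.063 for Dlg4, -0.12 to 4.83e-05 for Dlgap1, -0.24 to 0.025 for Shank1, -0.28 to 0.0066 for Shank2, -0.19 to 0.071 for Shank3 and -0.026 to 0.18 for Synpo. In hippocampus they were -0.046 to 0.11 for Homer1, -0.028 to 0.032 for Shank1, -0.048 to 0.0021 for Shank2, -0.025 to 0.055 for Shank3 and -0.10 to 0.029 for Synpo2. In ventricles they were -0.041 to 0.042 for Camk2a and -0.063 to 0.072 for Dlg4, and in atria -0.0040 to 0.13 for Dlg4. Between regions a whole mouse was left out at a time, and Shank3 between Gnb5+/+ hippocampus and cortex then ranged from -0.026 to 0.062.

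Between Gnb5+/+ hippocampus and cortex 2 of the 9 genes were called, 5 without the 3 libraries that stood apart, and 1 to 2 with 1 mouse left out. In Gnb5+/+ libraries alone 6 were called, a count given without the share of all genes in that fit. In Gnb5-/- the count was 3, and 2 to 5 with 1 mouse left out. DESeq2 called more genes in all than edgeR: 49 against 14 in cerebellum, 104 against 29 in hippocampus, 25 against 10 in cortex, 110 against 41 in Gnb5-/- atria and 63 against 28 in Gnb5-/- ventricles. Without the library apart edgeR called 62 in cerebellum, and without both 26 in cortex. Synpo between heart and brain was 0.83 and turned to -0.014 with library totals. The replicate numbers that the labels share across genotypes did not pair the libraries (r -0.20 to 0.15, 1 of 30 above 0.1), and a fit with the replicate number as a block called 0 of the 9. Without the 3 libraries apart, an alternative chosen after seeing the data, 3 permutation tests had an unadjusted p below 0.05 against 6, and the log2 difference between genotypes turned to -0.026 for Shank2 to Shank1 and 0.032 for Shank3 to Shank1 in cortex and to 0.017 for Camk2a to Camk2b in cerebellum. Ventricular Shank2, at 1 to 13 reads, and Dlgap1 were limited by depth.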
